A study of Mus musculus with 20 samples.

Results

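Liver H3K27ac was set against liver H3K4me1 to describe which stretches of H3K4me1 chromatin carried acetylation. The comparison used the 5 liver libraries among the 20 libraries of a mouse study of chromatin marks at distal enhancers. The liver libraries were immunoprecipitates of H3K27ac, H3K4me1, H3K4me3 and total histone H3, together with whole cell extract (WCE), which was sequenced without an antibody. Reads were counted once per position and strand, moved 100 bp toward the centre of their fragment and summed in 1 kb bins of the 19 autosomes, as reads per 1000000 distinct reads (RPM). A bin was called for H3K4me1 or H3K27ac at 4 RPM or more and at least 3-fold over the highest of the genome mean and the 5 kb averages of H3 and WCE. By that rule 59825 of 2084680 tested bins, 2.87%, were H3K4me1 bins and 52348, 2.51%, were H3K27ac bins. H3K4me3 bins, defined by 4 RPM or more alone, numbered 33596, 1.61% of tested bins.

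H3K4me1 is a methyl mark of histone H3 that is spread over enhancers and over the flanks of active promoters. H3K27ac is an acetyl mark deposited by p300 and CBP at active enhancers and promoters, so that H3K4me1 chromatin is commonly divided into acetylated and unacetylated elements. H3K4me3 marks the starts of active and poised genes. It is another methylation state of the same lysine as H3K4me1, so that a single histone tail carries only one of them.

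All 5 libraries came from whole perfused liver, a tissue made up mostly of hepatocytes with Kupffer, endothelial, stellate and bile duct cells beside them. The tissue was broken up, passed through a 100 µm strainer and spun at 30 g, and the labels give no strain, age, sex, treatment or number of animals. Because the tissue is mixed, fewer cells carrying a mark and less of the mark per cell cannot be told apart. Each mark had 1 library, so no difference below has a replicate check and none was tested. Intervals are 95% Wilson intervals that cover counting error only, and they are narrower than the true uncertainty because neighbouring bins are not independent. Levels of the H3K27ac and H3K4me1 antibodies were compared in rank and in pattern, not as amounts of the marks.

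The H3K27ac library held 5049578 distinct autosomal reads, H3K4me1 7319342, H3K4me3 7894000, H3 4283500 and WCE 3930980. Repeated reads made up 1.49 to 2.74% of the H3, H3K4me1 and H3K27ac libraries, 13.2% of H3K4me3 and 14.4% of WCE. H3K27ac was the more concentrated of the 2 marks, with 58.5% of its reads inside its called bins against 41.7% for H3K4me1. At 4 RPM a bin held 20.2 H3K27ac reads on average, and at 34.1% of H3K4me1 bins the counting interval of the H3K27ac level spanned that threshold. A single bin near the threshold could therefore fall on either side, whereas shares over large groups of bins have narrow counting intervals.

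About as many H3K4me1 bins carried called H3K27ac as did not. Of the 59825 bins, 31304 were acetylated, a share of 52.3% (51.9 to 52.7). The share was 47.0% on chromosome 12, the lowest, and 56.1% on chromosome 15, the highest. A further 11.5% (11.3 to 11.8), 6891 bins, had H3K27ac under 1 RPM and are called low here, and the remaining 36.2% were intermediate. The sizes of these classes depend on the cutoffs and on counting error. Whether H3K27ac levels were graded or fell into separate states was not tested. Intermediate bins also include some that passed 4 RPM but not the 3-fold condition, up to 33.1 RPM. Median H3K27ac was 8.32 RPM in acetylated, 2.38 RPM in intermediate and 0.594 RPM in low bins, values that the classes themselves fix. Only 585 bins had no H3K27ac read at all, where a count of 0 allows up to 3 reads or 0.594 RPM.

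What H3K4me1 added to the chance of finding H3K27ac depended on the place. Among bins at 5 kb or more from any H3K4me3 bin, hereafter far bins, 46.7% of 32657 H3K4me1 bins were acetylated, against 0.220% of 1901034 bins without called H3K4me1. At 1 to 4 kb the shares were 53.1 and 1.96%. In H3K4me3 bins they were 65.6 and 72.0% over all H3K4me3 levels, a direction that differed between levels of H3K4me3 as given further on. Away from H3K4me3, called H3K27ac was thus found far more often in H3K4me1 bins than in other bins, although most far H3K4me1 bins were not acetylated.

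The higher the H3K4me1 level of a bin, the more often it was acetylated. In 5 groups of H3K4me1 bins ordered by level, from 4.10 to 4.51 RPM up to 8.88 to 66.0 RPM, the acetylated share was 31.2, 38.0, 48.5, 60.4 and 81.2%. The low share in the same groups was 20.3, 16.8, 11.8, 7.16 and 2.61%. The groups, meant to be equal, held 10183 to 13537 bins because of tied levels. The order continued below the calling threshold, where 22.5% of 26754 bins at 3 to 4 RPM of H3K4me1 had called H3K27ac against 32.9% of 16583 bins at 4 to 5 RPM.

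The dependence on level was steeper away from H3K4me3 bins than on them. Among far bins the acetylated share was 21.5% (20.4 to 22.5) in the lowest level group and 80.2% (79.3 to 81.2) in the highest. Within 1 kb of an H3K4me3 bin the same groups stood at 49.6% (47.9 to 51.3) and 81.1% (79.8 to 82.3). The higher share at weak H3K4me1 lay on the H3K4me3 bins themselves, with 61.6% of them acetylated in the lowest level group against 25.8% of bins at 1 kb and 25.9% at 5 to 9 kb. In the highest level group the share was 79.2% on H3K4me3 bins, 84.2% at 1 kb, 77.1% at 50 to 99 kb and, at 200 kb or more, 51 of 85 bins (interval 49.4 to 69.8%). Across bins, Pearson's r of the log2 levels of the 2 marks, after adding 0.5 RPM, was 0.50 far and 0.28 within 1 kb, and Spearman's rho was 0.48 and 0.26. Bins are not independent and share base composition and mappability, so these describe the pattern only.

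**Figure D1:**
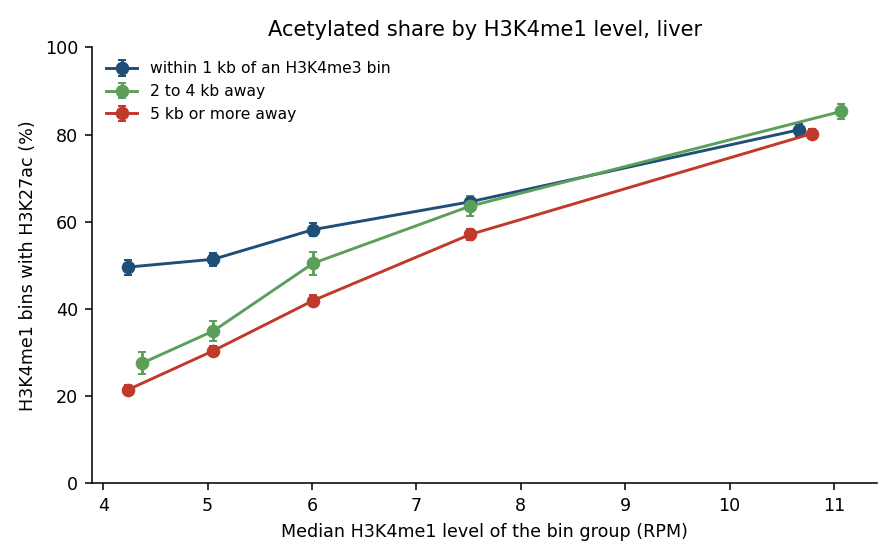
Share of liver H3K4me1 bins with called H3K27ac (%, vertical axis) against the median H3K4me1 level (RPM, horizontal axis) of 5 level groups, for 3 ranges of distance to the nearest H3K4me3 bin. Bars are 95% Wilson intervals; the lines lie apart at weak H3K4me1 (49.6% within 1 kb, 21.5% at 5 kb or more) and lie between 80.2 and 85.3% in the highest group.

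Wide H3K4me1 domains were acetylated more often than isolated bins. Adjacent H3K4me1 bins were joined into 32905 stretches, of which 19773 were single bins and 231 were 10 kb or wider. The share of bins acetylated was 34.0% in single bins, 48.7% in 2 kb stretches, 63.0% at 3 to 4 kb, 73.3% at 5 to 9 kb and 81.7% at 10 kb or more. Far from H3K4me3 the share went from 25.9% (25.1 to 26.7) in 11043 single bins to 77.1% (75.0 to 79.0) in 1656 bins of stretches of 10 kb or more. Low H3K27ac was concentrated in narrow elements, at 24.6% of far single bins and 1.03% of far bins in the widest stretches.

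Wide stretches also held higher H3K4me1, so width was read within level groups. In the lowest level group of far bins, 14.1% of single bins and 42.6% of bins in stretches of 10 kb or more were acetylated. In the highest group the corresponding shares were 56.4 and 92.6%. Averaged over the 5 level groups with equal weight, the far share was 31.7% in single bins, 46.1% at 2 kb, 55.9% at 3 to 4 kb, 58.7% at 5 to 9 kb and 63.1% at 10 kb or more. Most of the step lay between 1 and 4 kb. Beyond 4 kb the share was higher with width in 4 of the 5 level groups, for example 65.7, 71.0 and 75.3% in the second highest. In the lowest and the second lowest group the intervals at 3 to 4 kb and at 10 kb or more overlapped. The share was not higher with width in the middle group, at 57, 53.9 and 56.1% with overlapping intervals.

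**Figure D2:**
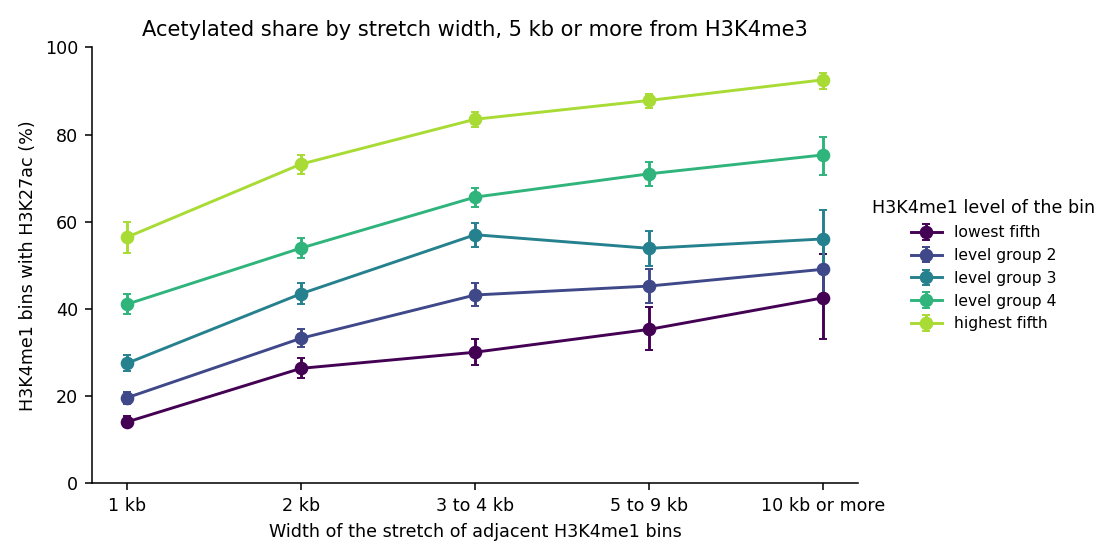
Share of liver H3K4me1 bins with called H3K27ac (%) by width of the stretch, for bins 5 kb or more from H3K4me3, with 1 line per H3K4me1 level group and 95% Wilson intervals. Within each level group single bins have the lowest share, from 14.1% in the lowest group to 56.4% in the highest.

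Counted as whole elements, 16485 of 32905 stretches (50.1%) had at least 1 acetylated bin. Of the 17903 stretches with every bin far from H3K4me3, 7648 (42.7%) did, from 25.9% of single bins to 63 of 64 stretches of 10 kb or more. A wider stretch has more chances to hold 1 such bin, which is why the shares of bins above are the better comparison. Wide elements were seldom acetylated throughout, since 25% of far stretches of 10 kb or more and 32.5% of those of 3 to 4 kb were acetylated in every bin.

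Among far bins of wide stretches, inner bins were acetylated more often than end bins. The stretches counted here could also hold bins nearer to H3K4me3. In stretches of 3 to 4 kb, 53.6% (52.1 to 55.1) of far end bins and 70.6% (68.9 to 72.3) of far inner bins were acetylated. At 10 kb or more the shares were 60.5 and 80.1%. Within 1 kb of H3K4me3 the end and inner bins stood at 70.0 and 73.2% in stretches of 3 to 4 kb and at 94.9 and 93.0%, with overlapping intervals, at 10 kb or more. Far end bins also had less H3K4me1, with medians of 6.15 RPM against 7.79 RPM in far inner bins of the 3 to 4 kb stretches. The positions of the maxima were compared only in stretches with every bin far. The highest H3K27ac bin and the highest H3K4me1 bin were the same in 60.3% of 1711 such acetylated stretches of 3 to 4 kb. The share was 42.7% of 539 stretches of 5 to 9 kb and 34.9% of 63 stretches of 10 kb or more. With more bins to choose from, coincidence is less likely in the wider ones, and in those of 10 kb or more the 2 maxima lay 2 kb or more apart in 46.0%.

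At finer scale, isolated far H3K4me1 bins of the acetylated and the low class differed in their surroundings as well. Centred on the highest H3K4me1 window of 100 bp, H3K4me1 reached a mean of 12.9 RPM per kb in 2862 acetylated single bins and 10.7 in 2717 low ones, a height that the centring favours in both. H3K27ac at the same window was 12.7 and 0.975 RPM per kb, which the classes fix. Outside the classified bin, 3 kb downstream along the chromosome, H3K27ac was 1.73 RPM per kb beside acetylated and 0.396 beside low bins, and H3K4me1 was 1.64 and 0.972. Low single bins thus lay in chromatin with less of both marks for several kb, whereas H3 at that distance was 0.609 and 0.588 RPM per kb.

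At far bins the H3 and WCE libraries did not separate the classes. Mean H3 at far acetylated, intermediate and low bins was 0.632, 0.632 and 0.646 RPM, and mean WCE was 0.865, 0.830 and 0.862 RPM. Far bins with neither mark had 0.471 RPM of H3 and 0.458 RPM of WCE. Far marked bins were thus better covered in both background libraries than far unmarked ones, by a similar amount in each class. Within 1 kb of H3K4me3, mean H3 was 0.626, 0.578 and 0.534 RPM at acetylated, intermediate and low bins. Mean WCE there was 0.955, 0.863 and 0.852 RPM. Both libraries were thus lower at low than at acetylated bins near H3K4me3.

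Acetylation was most frequent on H3K4me3 itself and less frequent with distance. The share was 65.6% (64.8 to 66.4) of 12957 H3K4me1 bins that were also H3K4me3 bins. It was 51.8% at 1 kb, 53.9% at 2 kb, 54.6% at 3 to 4 kb and 52.4% at 5 to 9 kb, a plateau on which chromosomes spread more widely than the steps. Beyond it the share was 50.8% at 10 to 19 kb, 47.4% at 20 to 49 kb, 39.1% at 50 to 99 kb, 34.6% from 100 kb to under 200 kb and 26.2% (23.6 to 29.0) of 1013 bins at 200 kb or more. Most of the contrast between bins within 1 kb (60.9%) and bins 10 kb or more away (45.1%), a difference of 15.8 percentage points, came from the H3K4me3 bins. That difference was 24.3 points with both marks called at 2 RPM, 24.4 with H3K4me3 at 2 RPM and 26.7 with a Poisson call, so its size depends on the calling.

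The low class followed the opposite order over the plateau and beyond. It made up 6.65% of H3K4me1 bins at 3 to 4 kb, 12.3% at 20 to 49 kb and 32% at 200 kb or more, and it was again higher at 1 kb, at 12.5%. H3K4me1 itself was sparser far out, with 59.5 bins per 1000 tested at 5 to 9 kb and 1.41 at 200 kb or more, and weaker, with medians of 6.29 and 5.47 RPM. Averaged over the 5 level groups the share was 65.9% on H3K4me3 bins, 50.6% at 5 to 9 kb and 31.7% at 200 kb or more. Equal weighting of levels thus left the order of these averages in place, although the order did not hold within each level group. In the highest group the share was 79.2% on H3K4me3 bins, 83.5% at 5 to 9 kb and 60% of 85 bins at 200 kb or more. Stretch width was not held equal, and its median was 2 kb at 5 to 9 kb and 1 kb at 200 kb or more.

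**Figure D3:**
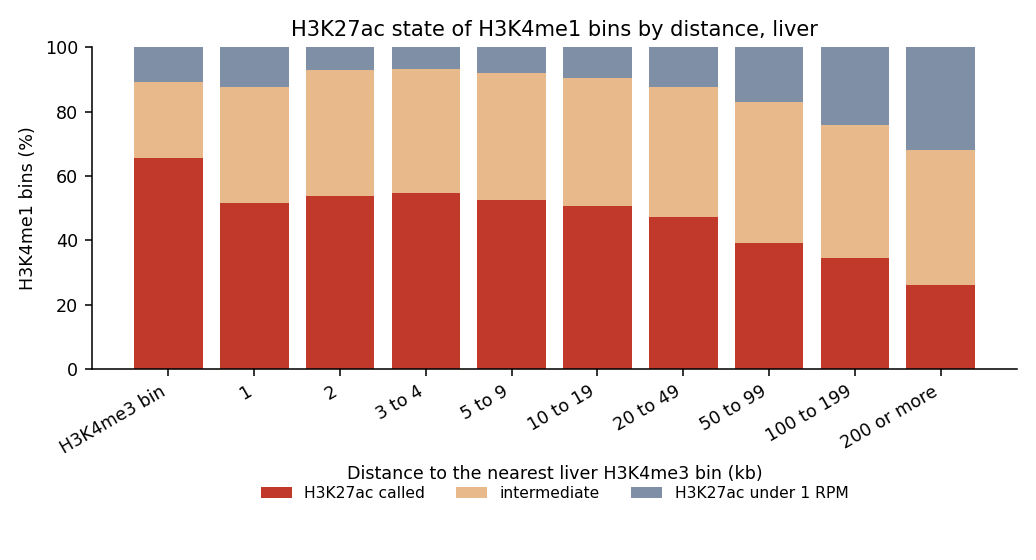
Liver H3K4me1 bins (%) with called H3K27ac, intermediate H3K27ac or H3K27ac under 1 RPM, by distance to the nearest liver H3K4me3 bin (kb), each bar adding to 100%. The acetylated part is 65.6% on H3K4me3 bins, 51.8 to 54.6% from 1 to 9 kb and 26.2% at 200 kb or more.

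On H3K4me3 bins the relation between the marks turned with the H3K4me3 level. From 4 to 8 RPM up to 64 RPM or more of H3K4me3, the share of bins with called H3K4me1 was 51.3, 50.7, 40.1, 18.0 and 4.96%. Over the same 5 groups the share with H3K27ac was 43.9, 56.1, 78.2, 96.4 and 99.9%. Median H3K4me1 was 4.10 RPM in the weakest and 1.09 RPM in the strongest group, while median H3K27ac was 3.37 and 24.6 RPM. The strongest H3K4me3 bins were thus nearly all acetylated and nearly all without called H3K4me1. In the weakest group 59.2% of bins with called H3K4me1 and 27.8% of bins without it had H3K27ac. At 8 to 16 RPM these shares were 57.7 and 54.5%, at 16 to 32 RPM 71.1 and 82.9%, and at 32 to 64 RPM 92.0 and 97.4%. H3K27ac was thus more frequent with H3K4me1 on weak H3K4me3 bins and less frequent with it from 16 RPM of H3K4me3 upward. Median H3 was 0.467 RPM in each of the 5 groups. As 4 RPM of H3 takes 18 reads, this median rests on very few reads per bin and could hardly differ between groups.

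Seen from the centres of these regions outward, both marks were highest on or beside H3K4me3. Averaged over all tested bins, H3K27ac was 10.6 RPM on H3K4me3 bins, 2.11 RPM at 1 kb and 0.675 RPM at 10 kb. H3K4me1 was 3.88, 2.60 and 0.873 RPM at the same places. H3K27ac was thus the more sharply concentrated on H3K4me3 bins relative to its own flank, and mean H3 stayed between 0.518 and 0.572 RPM throughout. Mean WCE was also higher on H3K4me3 bins, at 0.886 RPM against 0.6155 RPM at 1 kb and 0.588 RPM at 10 kb.

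**Figure D4:**
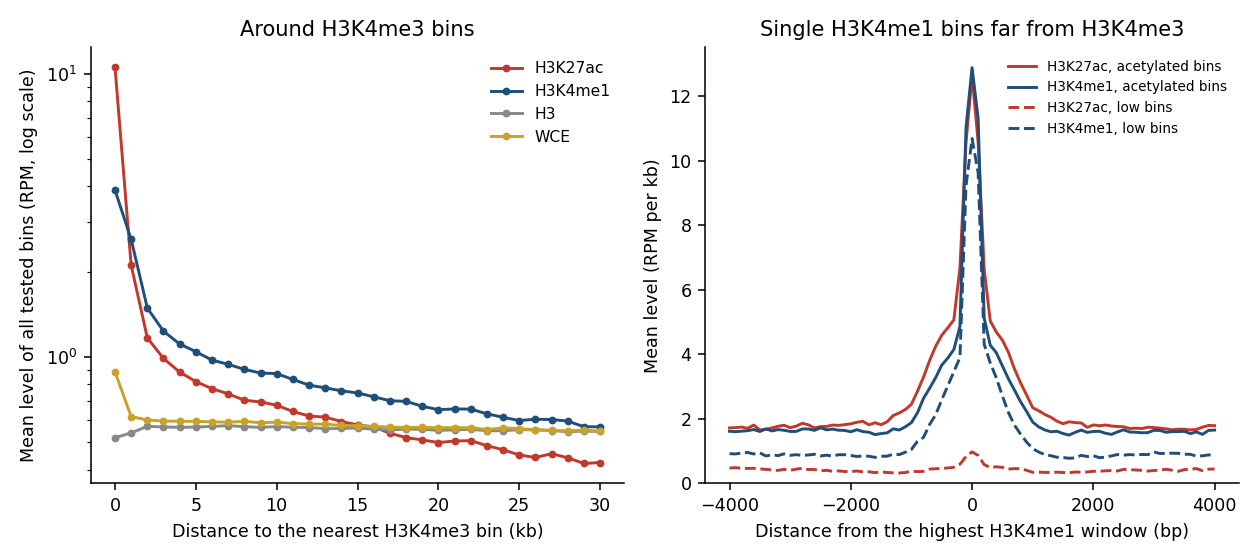
Left, mean RPM (log scale) of all tested bins against distance to the nearest H3K4me3 bin (kb) in 4 liver libraries. Right, mean RPM per kb around the highest H3K4me1 window of single H3K4me1 bins 5 kb or more from H3K4me3, acetylated (solid) and low (dashed); beside the low bins both marks are also lower, with H3K27ac at 0.396 against 1.73 RPM per kb at 3000 bp.

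Read in the other direction, 31304 of 52348 H3K27ac bins (59.8%, 59.4 to 60.2) had called H3K4me1. The share was 27.9% with both marks called at 8 RPM. It was 78.5% of far H3K27ac bins and 36.4% of those on H3K4me3. Far from H3K4me3 it went from 62.9% at 4.16 to 5.15 RPM of H3K27ac to 98.3% at 15.8 RPM or more, so that nearly every strongly acetylated far bin was an H3K4me1 bin. On H3K4me3 bins the same groups stood at 40.3 and 32.1%.

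H3K27ac without called H3K4me1 was mainly a feature of H3K4me3 chromatin. Of 21044 such bins, 70.6% were H3K4me3 bins, with median levels of 12.3 RPM of H3K27ac and 33.8 RPM of H3K4me3. The 4173 far ones were weak, with a median H3K27ac of 5.35 RPM, and they had a median of 3.01 RPM of H3K4me1, just under the threshold. An H3K4me1 bin lay directly beside 49.3% of them, and 30.0%, 1251 bins, had none within 5 kb. Far H3K27ac with very little H3K4me1 was rare, as 0.582% of far H3K27ac bins had under 1 RPM.

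Individual far stretches showed how far the 2 marks could separate. The following were named among 6799 far stretches of 2 kb or more with H3 and WCE under 2 RPM per kb. Coordinates are 1-based as in the deposited files, whose genome build is not given in the sources used here, and the positions fit within mm8. No gene or exon is attached to them because no annotation of that build was used here. The most acetylated was a 3 kb stretch at chr2:167542001-167545000, 35 kb from H3K4me3, with 632 H3K27ac reads, 303 H3K4me1 reads, 9 H3 reads, 15 WCE reads and 26 H3K4me3 reads. That is 41.7 RPM per kb of H3K27ac and 13.8 of H3K4me1, a ratio of 3.02 (95% counting interval 2.63 to 3.48).

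The other four most acetylated stretches had H3K27ac of 29.4 to 40.9 RPM per kb and H3K4me1 of 8.12 to 11.3 RPM per kb. They lay at chr2:27382001-27384000, chr4:149624001-149631000, chr8:129691001-129696000 and chr8:14850001-14852000. All of their bins were acetylated, and their ratios of H3K27ac to H3K4me1 were 2.99 to 3.85. The 7 kb stretch on chromosome 4 was the widest of the 5, with 1105 H3K27ac and 416 H3K4me1 reads and with 40 H3K4me3 reads, 0.724 RPM per kb.

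Stretches with equally strong H3K4me1 and almost no H3K27ac also existed. Of the 6799 stretches, 354 had mean H3K27ac under 1 RPM. The one with the highest H3K4me1, chr8:127520001-127522000, had 168 H3K4me1 reads (11.5 RPM per kb) and 8 H3K27ac reads (0.792 RPM per kb), beside 5 H3 and 7 WCE reads. At chr9:115325001-115327000, 166 kb from H3K4me3, 153 H3K4me1 reads stood against 5 H3K27ac reads, a ratio of 0.0474 (0.0152 to 0.113). At chr19:42654001-42657000 there were 224 H3K4me1 and 10 H3K27ac reads. The 5 stretches of this kind with the highest H3K4me1, at 10.2 to 11.5 RPM per kb, overlapped in H3K4me1 with the 5 most acetylated ones. Their H3K27ac, at 0.495 to 0.990 RPM per kb, lay near the H3 and WCE levels of the same stretches. Both sets were picked by these levels, which fixes the gap in H3K27ac and favours the overlap in H3K4me1. They show that such stretches exist, not what is typical of low stretches.

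The 3 widest far stretches differed in how much of their length was acetylated. The widest covered 55 kb at chr2:27530001-27585000, with H3K27ac called in 49 of its bins, 7.61 RPM per kb of H3K27ac and 11.4 of H3K4me1. It lay downstream, by coordinate, of the highly acetylated chromosome 2 stretch at 27382001. A 25 kb stretch at chr15:58814001-58839000 was acetylated in 24 bins at 23.2 RPM per kb, a ratio to H3K4me1 of 2.14. A 19 kb stretch at chr16:10878001-10897000 was acetylated in 6 bins at 3.14 RPM per kb, a ratio of 0.401 (0.352 to 0.456), with 7.82 RPM per kb of H3K4me1. Wide H3K4me1 alone therefore did not fix the level of H3K27ac.

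**Figure D5:**
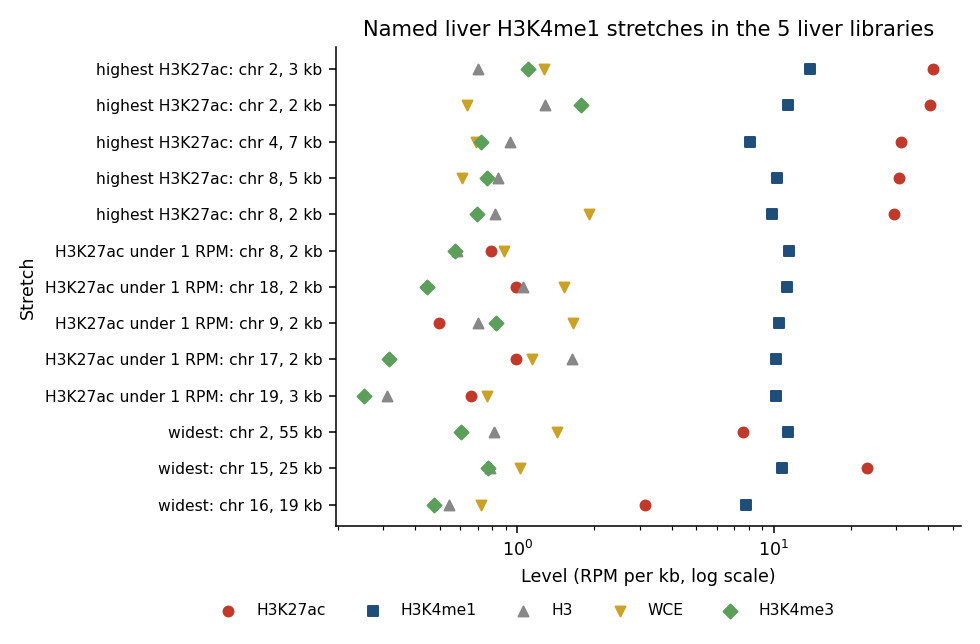
Levels (RPM per kb, log scale) of the 5 liver libraries in 13 named H3K4me1 stretches 5 kb or more from H3K4me3: the 5 with the highest H3K27ac, the 5 with the highest H3K4me1 among those with H3K27ac under 1 RPM, and the 3 widest. H3K4me1 lies between 7.82 and 13.8 RPM per kb in all 13, while H3K27ac ranges from 0.495 to 41.7.

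The widest H3K27ac stretches without any H3K4me1 bin all lay on H3K4me3. They covered 11 kb at chr2:26397001-26408000, 11 kb at chr12:58454001-58465000 and 8 kb at chr3:83092001-83100000, and were named among 7209 of 22785 H3K27ac stretches that held no H3K4me1 bin. Their H3K27ac was 7.24, 14.2 and 12.1 RPM per kb, their H3K4me1 1.37, 2.09 and 1.61, and their H3K4me3 5.48, 17.8 and 25.5. H3K4me1 was thus below the threshold but above the genome mean of 0.480 RPM in all 3.

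Neighbouring far stretches tended to be in the same state. Across a gap of 1 kb, the next stretch had an acetylated bin in 66.6% (63.5 to 69.7) of cases when the first one had one and in 42.9% (39.2 to 46.6) when it had none. Across 10 to 19 kb the shares were 49.4 and 36.7%, and across 50 to 99 kb 40.3 and 30.0%. At gaps of 100 kb or more they were 28.8 and 24.5%, with overlapping intervals. The resemblance between neighbours was thus largest below 10 kb, and no pair counted here had an H3K4me3 bin between its members. Width, H3K4me1 level and distance to H3K4me3 of the stretches were not held equal. Their part in the resemblance was not tested.

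Low liver bins differed from acetylated ones in a mark measured in other cells. Embryonic stem (ES) cells are pluripotent cells of the early embryo, and their H3K4me3 library, from 129JAE-C57/B6 cells, was counted by the same rule. Of far low liver bins, 194 of 4156 (4.67%, 4.07 to 5.35) were H3K4me3 bins in ES cells, against 36 of 15261 far acetylated bins (0.236%, 0.170 to 0.326). The share was 0.280% of far intermediate bins and 0.116% of far bins with neither liver mark. Turned round, 267 far liver H3K4me1 bins were H3K4me3 bins in ES cells, and of these 72.7% were low and 13.5% (9.90 to 18.1) acetylated. Their median H3K27ac was 0.198 RPM at a median H3K4me1 of 5.33 RPM. At 5 to 9 kb from ES H3K4me3, 9.77% of 4187 far bins were low and 48.2% acetylated.

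The same order held at liver H3K4me3 bins, where 65.2% of low and 38.4% of acetylated H3K4me1 bins were also H3K4me3 bins in ES cells. A library of the DNA-binding factor Rfx1 from neural progenitor cells, derived from 129JAE-C57/B6 cells, averaged 1.99 RPM at far low and 0.625 RPM at far acetylated bins. At far bins with neither liver mark the Rfx1 mean was 0.260 RPM. Without bins under 5 kb from ES H3K4me3 the means at far low and far acetylated bins were 1.22 and 0.620 RPM. The ES H3K4me3 and Rfx1 libraries consisted of repeated reads to 70.0 and 72.5% and held 2319684 and 694055 distinct reads, and the part of this in the result was not tested. Leaving out bins close to ES H3K4me3, a step chosen after seeing the data, gave 47.1% acetylated and 12.1% low among far bins, so ES H3K4me3 bins accounted for a small part of the low class.

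Over all far bins, H3K4me1 and H3K27ac of ES cells differed less between the liver classes. Mean ES H3K4me1 at far acetylated bins was 1.03 to 1.12 times that at far low bins in 3 libraries, and mean ES H3K27ac was 1.20 and 1.01 times in 2. Within the 5 level groups the ratios were 0.741 to 1.11 for ES H3K4me1 and 0.650 to 1.35 for ES H3K27ac. They were below 1 in the lowest 3 level groups in all 5 of these libraries. At equal weak H3K4me1 the low liver bins thus had the higher mean of both ES marks. In the highest group, with 137 low bins, the ratios were above 1 in 4 of the 5. Ratios below 1 in the lowest 3 groups were found in all 15 libraries from other cells. Examples are fibroblast H3K4me1 at 0.688 to 0.757 and fibroblast H3 at 0.813 to 0.818, so this was not particular to these ES marks. ES H3 and WCE gave 0.929 to 1.10 and 0.855 to 1.02 within the groups. For ES H3K4me3 the ratio was 0.435 over all far bins and 0.348 to 0.530 within the 5 level groups.

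The same bin rule was applied to ES cells, which had 2 H3K27ac libraries, both from the 129JAE-C57/B6 line, and 3 H3K4me1 libraries from different lines. These were 129JAE-C57/B6, the same background with the dox inducible 4f2a transgene, and C57/B6 inbred, so differences between lines and between libraries of H3K4me1 cannot be told apart. Of ES H3K4me1 bins, 33.1 to 49.98% were acetylated over the 6 pairings. Of the bins called acetylated with one ES H3K27ac library, 81.2 to 91.8% were called with the other. The share was 20.1 to 32.8% in the lowest and 53.4 to 75.1% in the highest level group, and 22.5 to 38.0% in single bins and 53.3 to 68.6% in stretches of 5 kb or more. In all 6 ES pairings the highest level group and the wide stretches thus had the higher shares, the same direction as in liver. Groups between these ends were not compared in ES cells. The pairings share libraries with each other but none with liver.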

How the data were processed

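Each file the authors deposited lists aligned reads of 1 library as signed positions, with repeats kept. These values are neither a count per feature nor a normalised signal. Which aligner and which genome build were used is not given in the sources used here. Positions fit within mm8, recalled lengths of which were compared with the highest position on each chromosome. The annotation at hand is of another build, so gene names, sequences and liver marker genes were not used here.

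Per the labels' protocols, chromatin was sonicated to a mean of 500 bp, amplified with 18 PCR cycles and cut from a gel at 200 to 350 bp. The distance between strands was 110 to 160 bp in the 5 liver libraries. Tested bins had at least 1 read in 1 of them. Low H3K27ac means under 1 RPM. Distances are in bins of 1 kb to the nearest liver H3K4me3 bin, and far means 5 kb or more. Named stretches were far stretches at least 2 kb wide with H3 and WCE each under 2 RPM per kb. Of these, the 5 with the highest mean H3K27ac were taken, the 5 with the highest mean H3K4me1 among those under 1 RPM of H3K27ac, and the 3 widest. The 3 widest H3K27ac stretches with no H3K4me1 bin were added.

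No statistical test was run, as each liver mark has 1 library. The bin calls were tested on simulated data. The members, groupings and rules were chosen with earlier results of these data known. Alternatives changed the thresholds, the repeats, the shift, the depth, the bin width and the call. Python 3.11.15, numpy 2.4.6, scipy 1.17.1 and matplotlib 3.10.9 were used.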

Additional observations from a re-analysis of the deposited data

How the results depend on the processing

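Each of 5 values was recomputed under 13 alternatives, 1 of them chosen after seeing the data: the acetylated share of H3K4me1 bins (52.3%), its differences between highest and lowest level group (49.99 points), between stretches of 5 kb or more and single bins (41.5 points) and between bins within 1 kb and 10 kb or more from H3K4me3 (15.8 points), and the share of H3K27ac bins with H3K4me1 (59.8%). All 39 recomputed differences kept their direction, and 33 of 65 values stayed within the counting interval. Both counts include values that could not change, since the H3K4me3 threshold of 2 or 8 RPM enters only the distance difference. The values outside the counting interval follow in that order. With both marks at 2 RPM the values were 53.0, 55.9, 45.4, 24.3 and 76.0. At 8 RPM they were 49.5, 37.6, 29.7, 11.7 and 27.9. A Poisson call gave 50.6, 58.9, 45.8, 26.7 and 78.1. An H3K27ac threshold passing as many bins as H3K4me1 gave 58.0, 47.2, 39.97, 13.8 and 58.6. With 500 bp bins the share, width and distance values were 47.8, 48.3 and 18.7, and with 2 kb bins 57.1, 28.4 and 23.2, with 56.1% of H3K27ac bins holding H3K4me1. The groups changed with the bin width, as single bins were then 500 bp or 2 kb wide. With 2 kb bins, those within 1 kb of H3K4me3 were the H3K4me3 bins alone. These width and distance differences are therefore not the same comparisons as with 1 kb bins. H3K4me3 at 2 or 8 RPM gave distance differences of 24.4 and 13. Thinning H3K4me1 to the H3K27ac depth gave shares of 51.9 and 59.0%, and keeping repeats gave 60.6% of H3K27ac bins with H3K4me1. The H3K27ac levels of the 16 named stretches stayed within their counting intervals with repeats kept and with no shift.

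No paired analysis was possible because each liver mark has 1 library. Depth limits single bins: far from H3K4me3 the counting interval of H3K27ac spanned 4 RPM at 37.0% of H3K4me1 bins. The low class cannot be told from bins with a little H3K27ac at this depth, since its median of 0.594 RPM corresponds to 3 reads. Whether the 5 libraries came from the same animals is not stated in the labels, so differences between animals and between marks cannot be told apart.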

Other observations

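The longest run of far H3K4me1 stretches without an acetylated bin, with gaps under 50 kb and no H3K4me3 bin between them, held 12 stretches over 157 kb at chr1:120974001-121131000. Mean H3K4me1 of these stretches was 4.65 to 11.1 RPM with a median of 7.15, and mean H3K27ac was 0 to 2.38 RPM with a median of 0.891. The longest run in which each stretch had an acetylated bin held 11 stretches over 68 kb at chr10:66416001-66484000. Its H3K4me1 was lower, with a median of 6.29 RPM, and its H3K27ac was 5.15 to 12.4 RPM with a median of 10.0. Both runs were chosen for their length after the classes were known and have no test.

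Chromosomes differed more in how much H3K4me1 they held than in how much of it was acetylated. H3K4me1 bins per tested Mb were 18.8 on chromosome 3 and 43.5 on chromosome 11, the lowest and the highest. The acetylated share of far bins was 41.9% on chromosome 3 and 51.3% on chromosome 4, again the lowest and the highest.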
